A study of Mus musculus with 17 samples.

Results

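The 36 genes described here were taken by name from a list of homologous recombination, Fanconi anaemia and replication fork repair genes, and all 36 were found among the 31438 genes of the deposited tables. They comprised 8 genes of the Fanconi core complex, the ID2 pair Fancd2 and Fanci, 5 genes of the BRCA complexes, 5 genes of the paralog complexes (Rad51b, Rad51c, Rad51d, Xrcc2 and Xrcc3), 3 genes of strand exchange (Rad51ap1, Rad54l and Rad54b), 5 genes of end resection and the MRN complex, 2 RecQ helicases, 3 genes of structure-specific nucleases, the polymerase gene Polq and 2 fork remodellers. RNA was measured in whole cerebella of C57BL/6 mice at postnatal day 3, with the meninges removed, by stranded poly-A RNA sequencing. The comparison was the effect of deleting Atr, the checkpoint kinase that protects stalled replication forks, with cell death blocked through Bax and Bak or with p53 removed.

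The Atr-deleted group of the first background carried Math1-Cre with Atr-loxP/loxP, Bax-loxP/loxP and Bak--/- (5 libraries, called Atr/Bax/Bak), and its control carried Math1-Cre with Bax-loxP/loxP and Bak--/- (4 libraries, called Bax/Bak). In the second background the Atr-deleted group carried Math1-Cre with Atr-loxP/loxP and p53-loxP/loxP (5 libraries, of which 4 were deep, called Atr/p53), and the control carried Math1-Cre with p53-loxP/loxP (3 libraries, called p53). All groups shared Math1-Cre, which acts in the granule neuron progenitors, and the controls carried the Bax and Bak or p53 alleles too, so no library here came from a cerebellum without an engineered allele. Cells in which Cre was never active were also in each tissue. In such bulk samples, fewer cells of a type and less RNA per cell cannot be told apart.

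The 16 deep libraries held 42987953 to 100659645 counts, and 1 library labelled Atr/p53 held 13601 counts with both lanes identical, so it was left out of the fits. The sample names of the Atr/Bax/Bak libraries began with a number not used for the Bax/Bak libraries, so the Atr genotype and the number series cannot be told apart there. The Atr/p53 libraries shared their number with p53 replicate 1, while p53 replicates 2 and 3 had another, so that 1 control was of the same number series. Among the deep libraries Atr/p53 replicate 2 stood apart, with 9.02% of counts from mitochondrially encoded genes, against 2.47 to 3.37% in the other Atr/p53 libraries and 2.13 to 3.23% in the p53 libraries. The engineered genes did not separate Atr-deleted from control tissue. Atr averaged 40.0 ± 3.07 CPM (counts scaled to library size) in Atr/Bax/Bak and 43.4 ± 3.99 CPM in Bax/Bak cerebella (SD, n = 5 and 4, two-sided exact permutation p = 0.19), and 37.1 ± 2.83 CPM in Atr/p53 and 37.0 ± 1.11 CPM in p53 cerebella (SD, n = 4 and 3, two-sided exact permutation p = 0.971). A single arrangement of the libraries makes up 0.00794 of all arrangements without Bax and Bak and 0.0286 without p53. The two-sided p counts both tails, so the smallest p these designs allow is larger than these shares. The adjusted p over the 8 tests of 4 engineered genes was 0.971. Bak1 averaged 0.435 ± 0.140 CPM in Atr/Bax/Bak and 0.365 ± 0.152 CPM in Bax/Bak cerebella (SD, n = 5 and 4), against 38.4 ± 3.99 CPM in Atr/p53 and 39.7 ± 2.01 CPM in p53 cerebella (SD, n = 4 and 3). Bax kept 32.4 ± 4.44 CPM in Atr/Bax/Bak and 34.0 ± 2.51 CPM in Bax/Bak cerebella, against 65.3 ± 8.30 CPM in Atr/p53 and 66.3 ± 1.81 CPM in p53 cerebella. Trp53, which encodes p53, kept 38.5 ± 6.73 CPM in Atr/p53 and 37.6 ± 1.61 CPM in p53 cerebella, against 69.5 ± 5.52 CPM in Atr/Bax/Bak and 68.8 ± 4.87 CPM in Bax/Bak cerebella. The removal of Atr, Bax and p53 is therefore taken from the genotype labels.

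Homologous recombination repairs double-strand breaks and broken replication forks by copying an intact sister chromatid. Broken ends are first resected to single strands, BRCA1 and its partners then help BRCA2 and the paralog complexes to prepare the strand for invasion of the sister, and helicases and nucleases resolve the joined molecules. The Fanconi pathway handles DNA interstrand crosslinks and stalled forks: a core complex attaches ubiquitin to the FANCD2 and FANCI pair, which brings in nucleases and recombination proteins. Many of these genes are expressed chiefly in S and G2 phase, and in the early postnatal cerebellum the granule neuron progenitors of the outer layer are the main dividing cells.

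Level per kilobase, in TPM (counts scaled by transcript length and library) averaged over the 4 groups, ran across the 36 genes between 2.22 TPM for Rad51b and 45.9 TPM for Rad51ap1. Rad51ap1, whose protein helps strand invasion, had 30.6 ± 1.60 TPM in Atr/Bax/Bak and 54.4 ± 3.13 TPM in Bax/Bak cerebella (SD, n = 5 and 4), and 47.9 ± 6.81 TPM in Atr/p53 and 51.0 ± 2.40 TPM in p53 cerebella (SD, n = 4 and 3). The fork remodeller Smarcal1 at 37.6 TPM, the nuclease scaffold Slx4 at 33.3 TPM and the MRN subunit Nbn at 28.5 TPM followed. At the low end, Bard1 had 4.12 TPM and Fancb 4.29 TPM.

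Promoters of 27 of the 36 genes were found in RefSeq's table for GRCm38.p6, each taken from 250 bases before to 50 bases after an annotated gene start. A set of 3 short motifs linked with cell-cycle transcription were searched on both strands: E2F words (TTTGGCGC, TTTCCCGC, TTTCGCGC or TTTGCCGC), CHR words (TTTGAA or TTCGAA) and the CCAAT box (CCAAT). An E2F word was present at 4 of the 27 genes (14.8%), against 2.60% of the 27025 genes of the table and 4.17% of the 12659 with a promoter that were tested without Bax and Bak. It was present at 3 of 21 genes that fell there (14.3%) and at 1 of 6 that did not (16.7%). CHR words were present at 6 of 27 (22.2%, against 21.7% of all genes and 16.8% of those tested), and a CCAAT box at 18 of 27 (66.7%, against 41.1% and 42.4%). No word contains another, and these matches describe letters, not bound sites. The E2F word carriers were Bard1, Brca2, Rad51c and Fancg, and their promoters are shown because they include 3 genes that fell with Atr deletion and the 1 gene that rose in the Bax/Bak background. Each runs 5′ to 3′ on the gene's strand, and capitals mark the E2F word or its reverse complement.
Bard1 (chr1:71102923-71103222, minus strand): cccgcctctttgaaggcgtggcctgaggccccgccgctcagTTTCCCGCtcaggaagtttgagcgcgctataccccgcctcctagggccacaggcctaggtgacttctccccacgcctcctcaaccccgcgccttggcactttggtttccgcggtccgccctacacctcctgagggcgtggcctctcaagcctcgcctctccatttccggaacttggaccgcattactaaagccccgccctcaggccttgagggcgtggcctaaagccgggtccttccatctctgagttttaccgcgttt
Brca2 (chr5:150522371-150522670, plus strand): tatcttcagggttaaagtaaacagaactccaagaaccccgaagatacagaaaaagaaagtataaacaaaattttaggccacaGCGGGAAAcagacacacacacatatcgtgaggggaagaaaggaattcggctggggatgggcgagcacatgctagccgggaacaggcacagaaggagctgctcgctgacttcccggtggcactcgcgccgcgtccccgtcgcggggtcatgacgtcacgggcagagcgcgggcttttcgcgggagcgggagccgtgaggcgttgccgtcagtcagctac
Rad51c (chr11:87404905-87405204, minus strand): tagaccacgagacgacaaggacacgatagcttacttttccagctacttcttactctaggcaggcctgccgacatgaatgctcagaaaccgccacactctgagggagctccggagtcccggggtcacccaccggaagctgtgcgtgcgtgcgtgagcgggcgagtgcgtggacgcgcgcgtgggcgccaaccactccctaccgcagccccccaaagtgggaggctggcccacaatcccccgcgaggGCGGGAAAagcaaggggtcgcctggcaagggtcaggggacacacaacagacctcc
Fancg (chr4:43010252-43010551, minus strand): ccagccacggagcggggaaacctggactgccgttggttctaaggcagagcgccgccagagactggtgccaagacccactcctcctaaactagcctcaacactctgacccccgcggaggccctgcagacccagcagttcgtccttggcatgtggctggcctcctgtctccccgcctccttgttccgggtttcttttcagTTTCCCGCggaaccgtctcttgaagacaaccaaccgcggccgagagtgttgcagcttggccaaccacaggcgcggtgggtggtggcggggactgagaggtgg
The words began at base -209 of Bard1, -168 of Brca2, -5 of Rad51c and -52 of Fancg relative to the start. A second annotated start of Rad51c (window chr11:87404457-87404756) held a word at base 12.

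With Bax and Bak removed, Atr deletion was accompanied by lower counts of most of these genes. Of the 36 genes, all of them tested, 28 fell and 1, Fancg, rose in Atr/Bax/Bak relative to Bax/Bak cerebella (edgeR quasi-likelihood test, adjusted p below 0.05 over 17405 genes). Among all genes tested, 22.0% were called lower and 22.5% higher, 44.5% in all. The median log2 fold change of the 36 genes was -0.39, against 0.04 for all genes, and their summed level was 575 to 647 CPM in Atr/Bax/Bak and 789 to 841 CPM in Bax/Bak cerebella. In CPM the groups did not overlap for 27 genes that were lower and for 1 that was higher in Atr/Bax/Bak, against a background of 21.1% lower and 17.1% higher. Fanca and Polq were called although their groups overlapped, and Smarcal1 was not called although its groups did not. The share of counts from mitochondrially encoded genes moved with these changes, at 3.53 to 4.35% in Atr/Bax/Bak and 1.81 to 2.55% in Bax/Bak cerebella, and its part in them was not tested. With the Bax/Bak controls of 1 number series only, 24 genes (replicates 1 and 2) or 28 genes (replicates 3 and 4) fell.

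**Figure D1:**
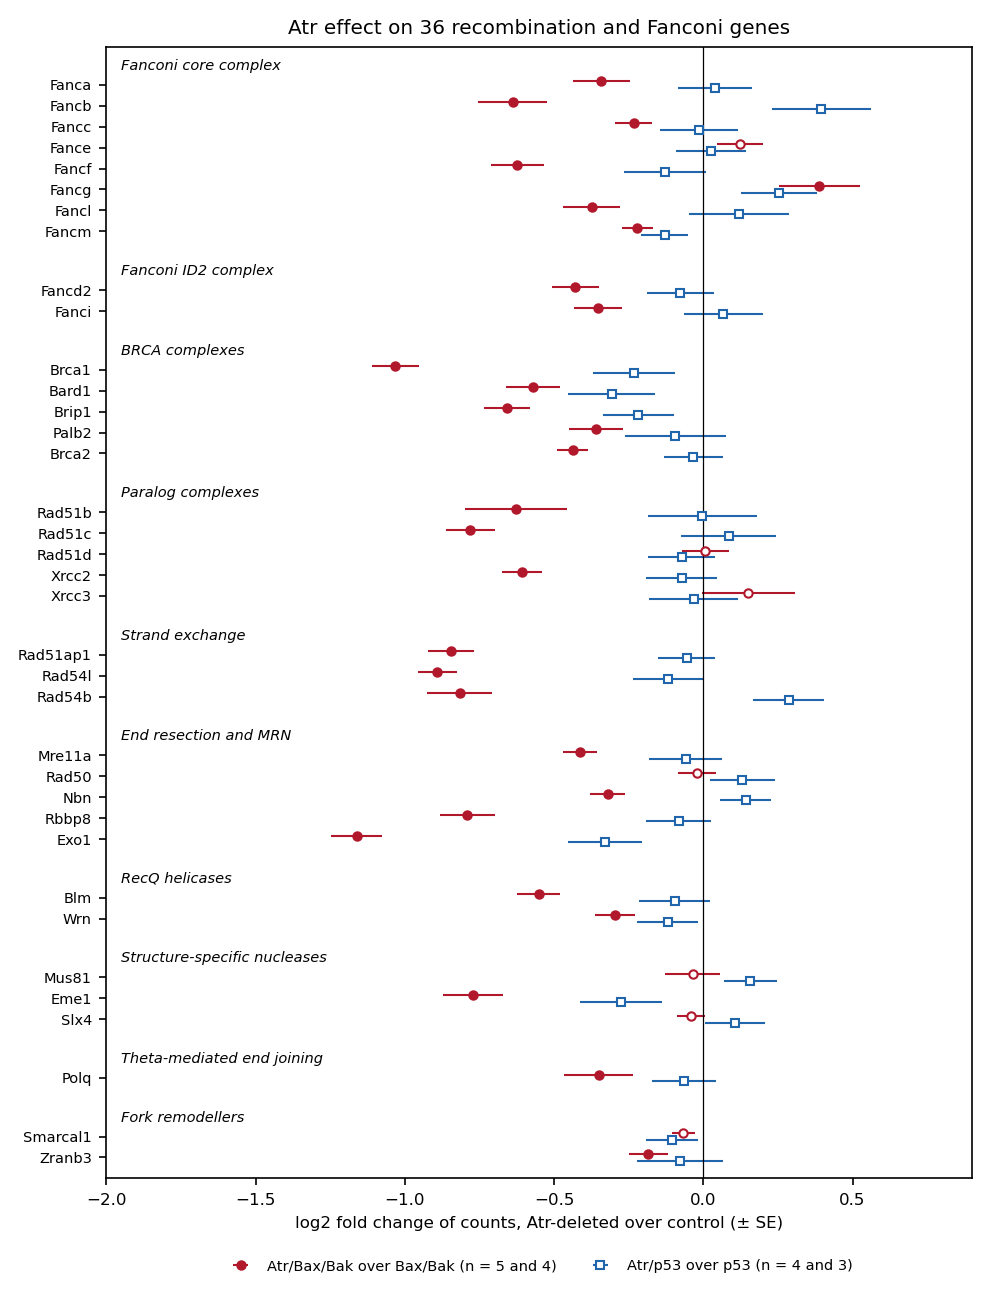
Log2 fold change of counts (x axis, ± SE) of the 36 genes, grouped by role from top to bottom, for Atr/Bax/Bak over Bax/Bak (red circles) and Atr/p53 over p53 (blue squares). Filled symbols passed an adjusted p of 0.05 in edgeR's test. In the first comparison 28 genes lie left of 0 and Fancg right of 0 with filled symbols, and in the second no symbol is filled.

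The heat map of all libraries shows each gene against the control mean of its own background, so that the spread between libraries stands beside the change. The 5 Atr/Bax/Bak columns were low throughout the BRCA rows and those of Rad51ap1, Rad54l and Rad54b. Among the Atr/p53 libraries replicate 2 had the lowest value of 21 of the 36 genes.

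**Figure D2:**
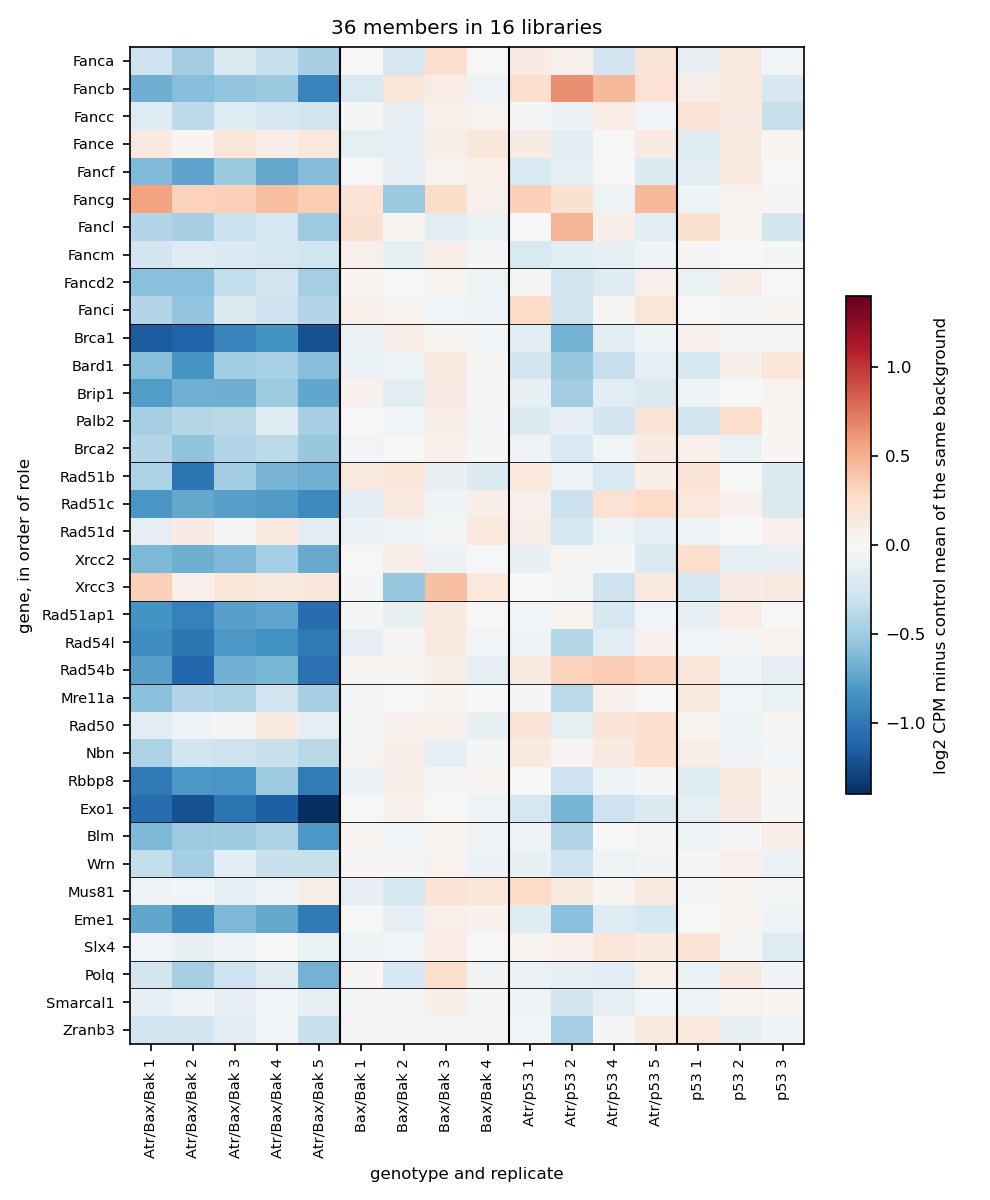
Log2 CPM minus the mean of the control libraries of the same background, for 36 genes (rows, by role) in 16 libraries (columns, by genotype and replicate). Blue is lower and red higher than the control mean. The 5 Atr/Bax/Bak columns are blue in most rows, while Fancg is red and Rad51d, Rad50, Mus81 and Slx4 are pale.

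In the Fanconi core complex, the ubiquitin ligase that modifies FANCD2 and FANCI, 6 of 8 genes fell. Fancb and Fancf, both core subunits, fell by 0.64 and 0.62 on the log2 scale, Fancl, the catalytic ubiquitin ligase, by 0.37, Fanca by 0.34, Fancc by 0.23 and Fancm, the DNA translocase that anchors the complex, by 0.22. Fance, which binds FANCD2, had a log2 fold change of 0.12 ± 0.08 (SE, adjusted p = 0.218, edgeR). Both genes of the modified pair fell, Fancd2 by 0.43 ± 0.08 and Fanci by 0.35 ± 0.08 on the log2 scale (SE).

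Fancg, a scaffold subunit of the core complex (chr4:43002343-43010506, minus strand, GRCm38), was the 1 gene that rose. It had 19.2, 16.2, 16.3, 17.4 and 16.6 CPM in Atr/Bax/Bak libraries, against 14.8, 9.05, 15.5 and 13.6 CPM in Bax/Bak libraries. The groups did not overlap, but Bax/Bak replicate 2 lay well under the other 3 controls. The log2 fold change was 0.39 ± 0.14 (SE, adjusted p = 0.0370 by edgeR), and the call was lost in 8 of 9 fits that left out 1 library, among them the fit without Bax/Bak replicate 2 (log2 fold change 0.20, adjusted p = 0.065). The main coding transcript, Fancg-201, had 7.90 ± 0.63 CPM in Atr/Bax/Bak and 8.65 ± 0.74 CPM in Bax/Bak cerebella (SD, n = 5 and 4). Fancg-202, annotated as a transcript with a retained intron, had 6.55 ± 0.82 CPM in Atr/Bax/Bak and 3.09 ± 2.14 CPM in Bax/Bak cerebella (SD, n = 5 and 4). With protein-coding transcripts alone, an alternative chosen after seeing the data, the log2 fold change of Fancg was -0.12 (adjusted p = 0.321 by edgeR).

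All 5 genes of the BRCA complexes fell. Brca1 (chr11:101488764-101551955, minus strand), the ubiquitin ligase that promotes resection, had 22.5, 23.3, 26.3, 28.3 and 21.7 CPM in Atr/Bax/Bak libraries, against 47.5, 53.8, 51.5 and 49.3 CPM in Bax/Bak libraries. Every Atr/Bax/Bak library lay well under every control, at 48.9% of the control mean by the fit (log2 fold change -1.03 ± 0.08 SE, adjusted p = 5.56e-06 by edgeR). Brip1, the helicase that binds BRCA1 (chr11:86058138-86201193, minus strand), had 9.69, 10.4, 10.4, 11.7 and 10.02 CPM in Atr/Bax/Bak libraries, against 17.3, 15.0, 18.0 and 16.3 CPM in Bax/Bak libraries. Again the groups were apart, with a log2 fold change of -0.66 ± 0.08 (SE, adjusted p = 6.57e-05 by edgeR). Bard1, the obligate partner of BRCA1 whose promoter is shown above, fell by 0.57 ± 0.09, Brca2, a mediator of strand invasion, by 0.44 ± 0.05, and Palb2, which bridges BRCA1 and BRCA2, by 0.36 ± 0.09 on the log2 scale (SE).

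The 5 genes of the paralog complexes divided. Of these, 3 fell, and Rad51d and Xrcc3 did not pass the test. Rad51c, a subunit of both paralog complexes (chr11:87376645-87404954, minus strand), had 7.21, 7.68, 7.46, 7.32 and 6.84 CPM in Atr/Bax/Bak libraries, against 11.4, 13.8, 12.1 and 13.5 CPM in Bax/Bak libraries. The Atr/Bax/Bak values sat close together under all controls (log2 fold change -0.78 ± 0.08 SE, adjusted p = 3.44e-05 by edgeR). The transcript of Rad51c with most counts was one annotated for nonsense-mediated decay, with 4.17 ± 0.61 CPM in Atr/Bax/Bak and 7.22 ± 0.96 CPM in Bax/Bak cerebella, and the main coding transcript had 1.94 ± 0.18 CPM in Atr/Bax/Bak and 3.37 ± 0.19 CPM in Bax/Bak cerebella (SD, n = 5 and 4). Xrcc2, which acts with RAD51D in the paralog complex (chr5:25689812-25705825, minus strand), had 11.5, 11.1, 11.6, 12.8 and 10.9 CPM in Atr/Bax/Bak libraries, against 17.7, 18.9, 16.8 and 17.9 CPM in Bax/Bak libraries. Here too the groups were apart (log2 fold change -0.61 ± 0.07 SE, adjusted p = 4.85e-05 by edgeR). Rad51b, the gene with the lowest level per kilobase, had 1.29, 0.869, 1.26, 1.12 and 1.11 CPM in Atr/Bax/Bak libraries, against 1.93, 1.98, 1.63 and 1.54 CPM in Bax/Bak libraries. Its groups did not overlap (log2 fold change -0.63 ± 0.17 SE, adjusted p = 0.0115 by edgeR). Rad51d had a log2 fold change of 0.01 ± 0.08 (SE, adjusted p = 0.957 by edgeR) and Xrcc3 one of 0.15 ± 0.16 (SE, adjusted p = 0.456 by edgeR).

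All 3 genes of strand exchange fell. Rad54l, the translocase that drives strand exchange (chr4:116094264-116123690, minus strand), had 15.9, 14.4, 16.6, 16.1 and 14.6 CPM in Atr/Bax/Bak libraries, against 26.9, 29.4, 31.9 and 28.3 CPM in Bax/Bak libraries. The gap between the groups was wider than the range within either (log2 fold change -0.89 ± 0.07 SE, adjusted p = 4.41e-06 by edgeR). Rad51ap1 (chr6:126923050-126939587, minus strand) had 17.7, 16.4, 18.7, 19.1 and 15.0 CPM in Atr/Bax/Bak libraries, against 30.97, 29.4, 34.7 and 31.5 CPM in Bax/Bak libraries. Each Atr/Bax/Bak library was lower than each control (log2 fold change -0.85 ± 0.08 SE, adjusted p = 1.44e-05 by edgeR). Rad54b, a relative of Rad54l (chr4:11558922-11615805, plus strand), had 7.97, 6.34, 8.50, 8.66 and 6.57 CPM in Atr/Bax/Bak libraries, against 13.8, 13.8, 14.3 and 12.3 CPM in Bax/Bak libraries. The groups were apart (log2 fold change -0.82 ± 0.11 SE, adjusted p = 0.000141 by edgeR), but the value is uncertain, since Rad54b overlaps Fsbp on the same strand and shared 35.0% of its 31-base words with other genes.

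Among the 5 genes of end resection and the MRN complex, 4 fell. Exo1, the nuclease of long-range resection (chr1:175880581-175913489, plus strand), had 14.2, 12.8, 14.6, 13.4 and 10.5 CPM in Atr/Bax/Bak libraries, against 29.5, 30.9, 29.7 and 28.4 CPM in Bax/Bak libraries. Its fold change was the largest of the 36 genes, to 44.7% of the control (log2 fold change -1.16 ± 0.09 SE, adjusted p = 4.73e-06 by edgeR). Rbbp8, which encodes CtIP, the factor that starts resection (chr18:11633276-11745221, plus strand), had 18.1, 20.5, 20.5, 25.4 and 18.2 CPM in Atr/Bax/Bak libraries, against 34.0, 37.9, 35.4 and 36.5 CPM in Bax/Bak libraries. Replicate 4 was the highest Atr/Bax/Bak library and still lay under every control (log2 fold change -0.79 ± 0.09 SE, adjusted p = 6.19e-05 by edgeR). Within the MRN complex, the break sensor, the nuclease gene Mre11a fell by 0.41 ± 0.06 and the signalling subunit Nbn by 0.32 ± 0.06 on the log2 scale (SE), while the ATPase gene Rad50 had a log2 fold change of -0.02 ± 0.06 (SE, adjusted p = 0.813 by edgeR).

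**Figure D3:**
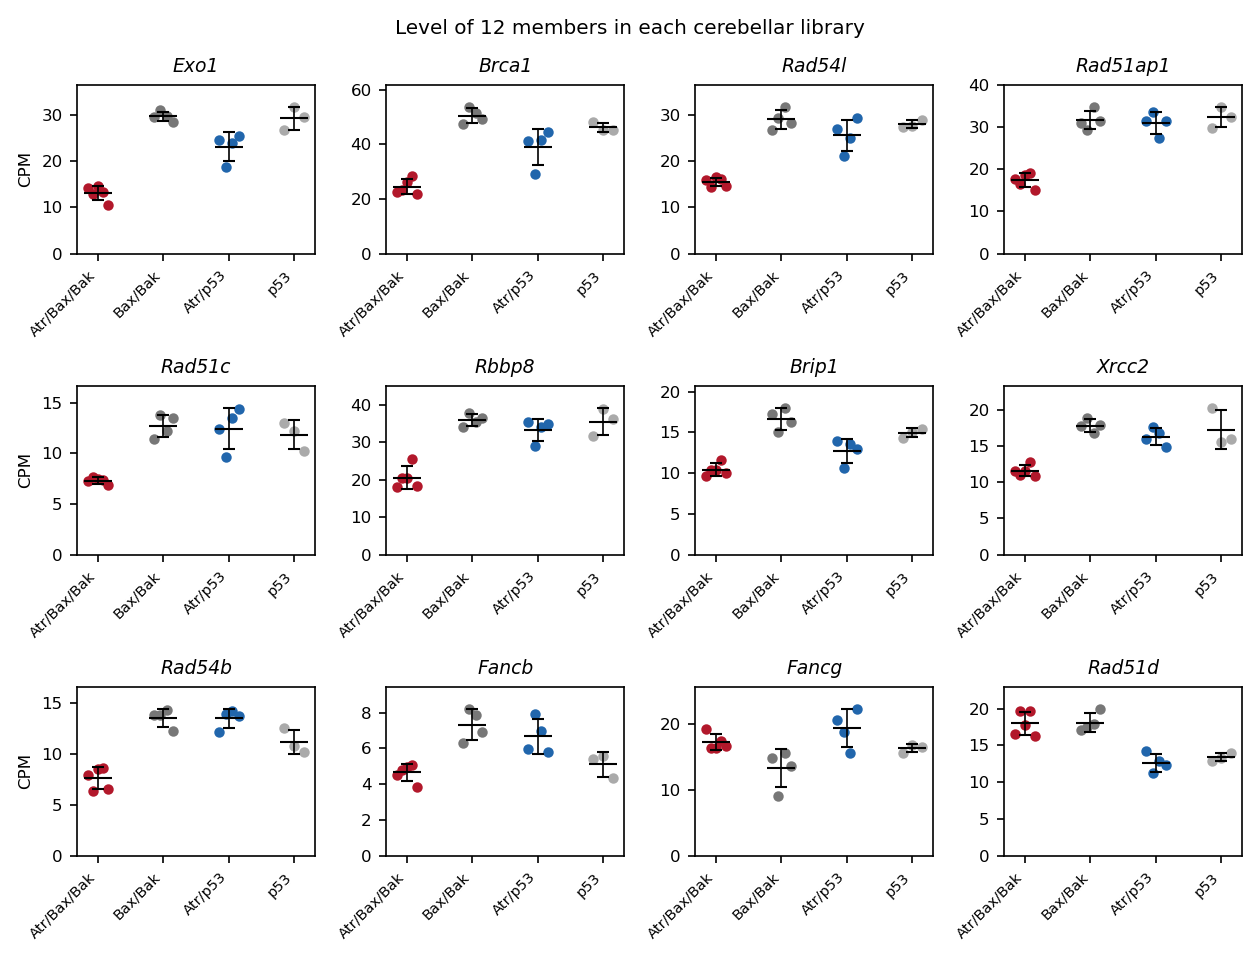
CPM (y axis, from 0) of 12 genes in each library, by genotype from left to right (Atr/Bax/Bak, Bax/Bak, Atr/p53, p53), with points for libraries and bars for the mean and SD. For Exo1, Brca1 and Rad54l the Atr/Bax/Bak points lie under all others, whereas for Rad51d the Atr/Bax/Bak and Bax/Bak points overlap.

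The remaining roles showed smaller or mixed changes. Blm, the RecQ helicase that dissolves double Holliday junctions, fell by 0.55 ± 0.07 and the RecQ helicase gene Wrn by 0.30 ± 0.07 on the log2 scale (SE). Of the structure-specific nuclease genes, Eme1 had 4.47 to 5.78 CPM in Atr/Bax/Bak and 8.10 to 9.33 CPM in Bax/Bak cerebella and fell by 0.77 ± 0.10 on the log2 scale (SE). Its catalytic partner Mus81 had a log2 fold change of -0.04 ± 0.09 (SE, adjusted p = 0.780 by edgeR), and the scaffold gene Slx4 one of -0.04 ± 0.05 (SE, adjusted p = 0.494 by edgeR). Polq, the polymerase of theta-mediated end joining, fell by 0.35 ± 0.12 on the log2 scale (SE, adjusted p = 0.0279 by edgeR). Zranb3, a fork remodeller, fell by 0.18 ± 0.06 on the log2 scale (SE, adjusted p = 0.0376 by edgeR), and Smarcal1, which acts on the same structures, had a log2 fold change of -0.07 ± 0.04 (SE, adjusted p = 0.191 by edgeR). The call of Zranb3 was lost in 7 alternatives (adjusted p up to 0.127 by edgeR) and that of Polq in 4 (up to 0.164).

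With p53 removed, none of the 36 genes passed the test. In Atr/p53 relative to p53 cerebella, 0 of 36 were called by edgeR and 0 by DESeq2, and 3 had an unadjusted p below 0.05 in edgeR. Of the 17348 genes tested, edgeR called 8 (0.0461%, all higher), and 0.0% were called lower. DESeq2 called 128 of the 17348 (0.738%), and 1142 had an unadjusted p below 0.05 in edgeR. The median log2 fold change of the 36 genes was -0.06, with a range of -0.33 to 0.39, and 24 of them had a negative value. Their summed level was 677 to 792 CPM in Atr/p53 and 756 to 782 CPM in p53 cerebella. The low end was Atr/p53 replicate 2, and the other Atr/p53 libraries had 745 to 792 CPM. The groups did not overlap for 5 genes that were lower (Fancm, Brca1, Brip1, Exo1 and Eme1) and 2 that were higher (Fancb and Mus81) in Atr/p53, against a background of 4.62% lower and 3.59% higher. With 4 and 3 libraries, the median SE of a log2 fold change was 0.12, against 0.08 in the other background.

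The 4 genes of smallest p were Exo1, Rad54b, Fancb and Bard1, and their values were as follows. Exo1 had 24.6, 18.6, 23.9 and 25.3 CPM in Atr/p53 libraries, against 26.6, 31.6 and 29.5 CPM in p53 libraries (log2 fold change -0.33 ± 0.12 SE, adjusted p = 0.703 by edgeR). All Atr/p53 values lay under the controls, replicate 2 furthest, and without replicate 2 the log2 fold change was -0.24. Rad54b had 12.1, 14.0, 14.3 and 13.8 CPM in Atr/p53 libraries, against 12.5, 10.8 and 10.2 CPM in p53 libraries (log2 fold change 0.29 ± 0.12 SE, adjusted p = 0.727 by edgeR). Replicate 1 of Atr/p53 lay under the highest control. Fancb had 5.97, 7.94, 6.96 and 5.82 CPM in Atr/p53 libraries, against 5.42, 5.57 and 4.33 CPM in p53 libraries (log2 fold change 0.39 ± 0.17 SE, adjusted p = 0.734 by edgeR). Its groups were apart by a small gap. Bard1 had 10.1, 8.36, 9.65 and 10.98 CPM in Atr/p53 libraries, against 10.2, 12.8 and 13.5 CPM in p53 libraries (log2 fold change -0.31 ± 0.15 SE, adjusted p = 0.772 by edgeR), and these overlapped.

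Whether the Atr effect differed between the backgrounds was tested directly, as (Atr/Bax/Bak minus Bax/Bak) minus (Atr/p53 minus p53), in the 16 deep libraries. It was called for 15 of the 36 genes, and in each the effect was more negative without Bax and Bak (edgeR adjusted p below 0.05 over 18166 genes). The background of this test was 16.2% of genes called, with 8.09% lower and 8.08% higher, and the median difference of the 36 genes was -0.40. All 15 genes were also among the 28 that fell without Bax and Bak. The number called was 12 to 18 with each library left out, the highest without Atr/p53 replicate 2.

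The smallest p-values of this test were those of Rad54b, Rad51ap1, Rad54l and Exo1. Rad54b, with the values given above, differed by -1.11 ± 0.16 (log2, SE, adjusted p = 0.000332 by edgeR), its Atr/Bax/Bak level being 7.61 ± 1.09 CPM against 13.6 ± 0.87 CPM in Bax/Bak, and its Atr/p53 level 13.5 ± 0.95 CPM against 11.2 ± 1.22 CPM in p53 (SD, n = 5, 4, 4 and 3). Rad51ap1 had 31.5, 33.4, 27.4 and 31.5 CPM in Atr/p53 libraries, against 29.9, 34.8 and 32.5 CPM in p53 libraries. These overlapped, and the difference of the effects was -0.80 ± 0.12 (log2, SE, adjusted p = 0.000569 by edgeR). Rad54l had 27.0, 21.2, 25.1 and 29.3 CPM in Atr/p53 libraries, against 27.4, 27.7 and 29.1 CPM in p53 libraries. Replicates 1, 2 and 4 lay under all controls and replicate 5 above them, and the effects differed by -0.78 ± 0.13 (log2, SE, adjusted p = 0.000750 by edgeR). Exo1 differed by -0.84 ± 0.15 (log2, SE, adjusted p = 0.00154 by edgeR). The other 11 genes called were Fancb (-1.04), Rad51c (-0.87), Brca1 (-0.81), Rbbp8 (-0.71), Xrcc2 (-0.54), Eme1 (-0.50), Fancf (-0.50), Nbn (-0.47), Blm (-0.46), Brip1 (-0.45) and Brca2 (-0.41), each as the log2 difference of the effects. Of these, Eme1 lost its call in 12 alternatives (adjusted p up to 0.111 by edgeR), Brip1 in 5, Fancf in 4 and Blm in 3. Bard1, which fell without Bax and Bak and had the negative value above without p53, differed by -0.27 ± 0.16 (log2, SE, adjusted p = 0.280 by edgeR).

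Genes of 1 complex did not fall by equal amounts, which ratios of counts within a library show without any scaling between libraries. The pairs were chosen after their values were seen and are given as a description. The ratio of Rad51c to Rad51d was 0.372 to 0.436 in Atr/Bax/Bak and 0.665 to 0.789 in Bax/Bak cerebella, and that of Xrcc2 to Rad51d was 0.565 to 0.696 in Atr/Bax/Bak and 0.895 to 1.09 in Bax/Bak cerebella. RAD51D is a partner of both proteins in 1 complex, and neither ratio overlapped between the groups. By contrast, Rad51b to Rad51d overlapped narrowly, at 0.0443 to 0.0781 in Atr/Bax/Bak and 0.0768 to 0.1137 in Bax/Bak cerebella. In the MRN complex the ratio of Mre11a to Rad50 was 0.990 to 1.05 in Atr/Bax/Bak and 1.28 to 1.44 in Bax/Bak cerebella, and that of Nbn to Rad50 was 0.935 to 1.09 in Atr/Bax/Bak and 1.11 to 1.35 in Bax/Bak cerebella. For the nuclease pair, Eme1 to Mus81 was 0.216 to 0.326 in Atr/Bax/Bak and 0.419 to 0.497 in Bax/Bak cerebella. Without p53, that ratio was apart too, at 0.320 to 0.447 in Atr/p53 and 0.507 to 0.533 in p53 cerebella. Mre11a to Rad50 was apart by a small gap, at 1.326 to 1.449 in Atr/p53 and 1.458 to 1.687 in p53 cerebella. The other ratios above overlapped without p53. Rad51c to Rad51d was 0.851 to 1.17 in Atr/p53 and 0.735 to 1.01 in p53 cerebella. Xrcc2 to Rad51d was 1.13 to 1.57 in Atr/p53 and 1.14 to 1.58 in p53 cerebella. Nbn to Rad50 was 1.44 to 1.68 in Atr/p53 and 1.43 to 1.55 in p53 cerebella. How often ratios of other pairs are apart was not tested. In the core complex, Fancf to Fance was 0.344 to 0.372 in Atr/Bax/Bak and 0.568 to 0.651 in Bax/Bak cerebella, and 0.328 to 0.422 in Atr/p53 and 0.4061 to 0.4198 in p53 cerebella, where the groups overlapped.

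**Figure D4:**
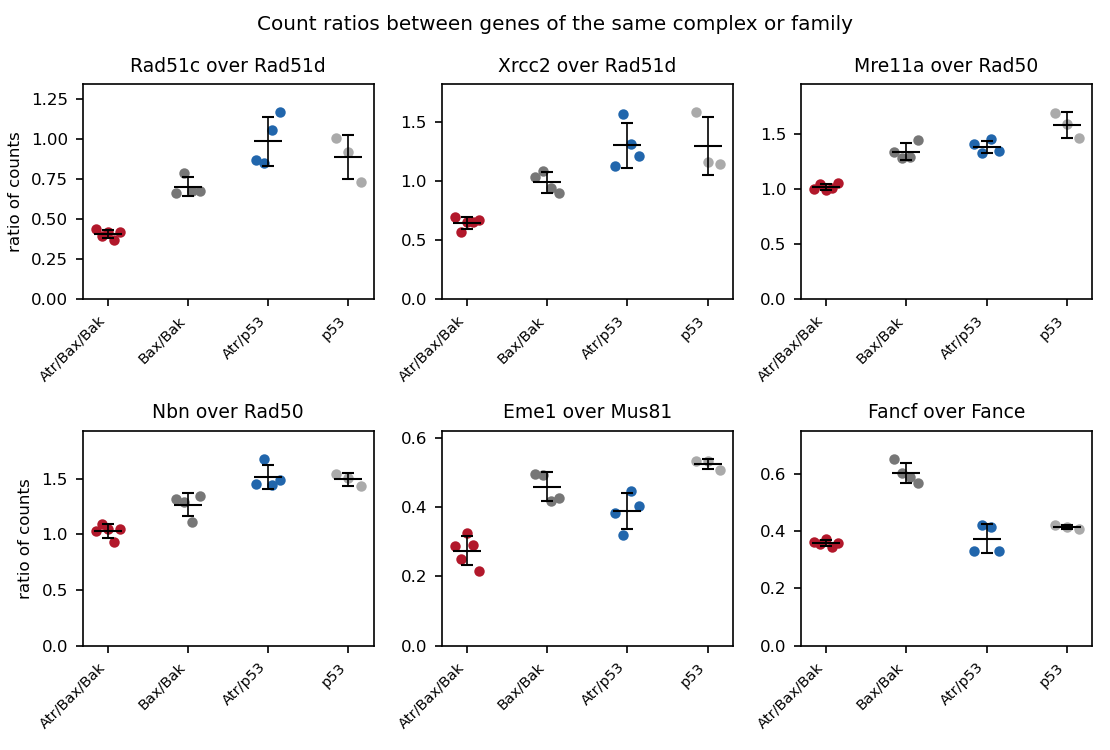
Ratio of the counts of 2 genes of the same complex or family in each library (y axis, from 0), by genotype from left to right, with points for libraries and bars for the mean and SD. In all 6 panels the Atr/Bax/Bak points lie under the Bax/Bak points. The ratio of Rad51b to Rad51d, which overlapped between these groups, is not drawn.

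Transcripts annotated with a retained intron took a larger share of the counts of several of these genes. Of 18 genes with such a transcript and counts in it, the mean share was higher in Atr/Bax/Bak than in Bax/Bak cerebella for 16 and in Atr/p53 than in p53 cerebella for 16. Over all genes tested with such transcripts, the mean share was higher for 79.1% without Bax and Bak and for 65.8% without p53. The groups did not overlap for 8 of the 18 genes (Fanca, Fancg, Brca1, Brca2, Rad51ap1, Rad54b, Slx4 and Polq), all higher in Atr/Bax/Bak, against a background of 13.5% higher and 0.941% lower. Without p53, the groups did not overlap for 1 of the 18 genes, Fanca, with a share of 7.398 to 14.372% in Atr/p53 and 5.534 to 6.841% in p53 cerebella, against a background of 5.20% higher and 1.67% lower. In Rad51ap1 the share was 25.7 to 37.5% in Atr/Bax/Bak and 12.2 to 20.1% in Bax/Bak cerebella, and in Brca2 it was 14.4 to 19.4% in Atr/Bax/Bak and 7.99 to 12.04% in Bax/Bak cerebella. The share over all counts of a library was 2.26 to 3.00% in Atr/Bax/Bak and 1.39 to 2.38% in Bax/Bak cerebella, and its part in these values was not tested. With protein-coding transcripts alone, Rad51ap1 had a log2 fold change of -1.14 (adjusted p = 1.52e-05 by edgeR), and 29 of the 36 genes fell.

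**Figure D5:**
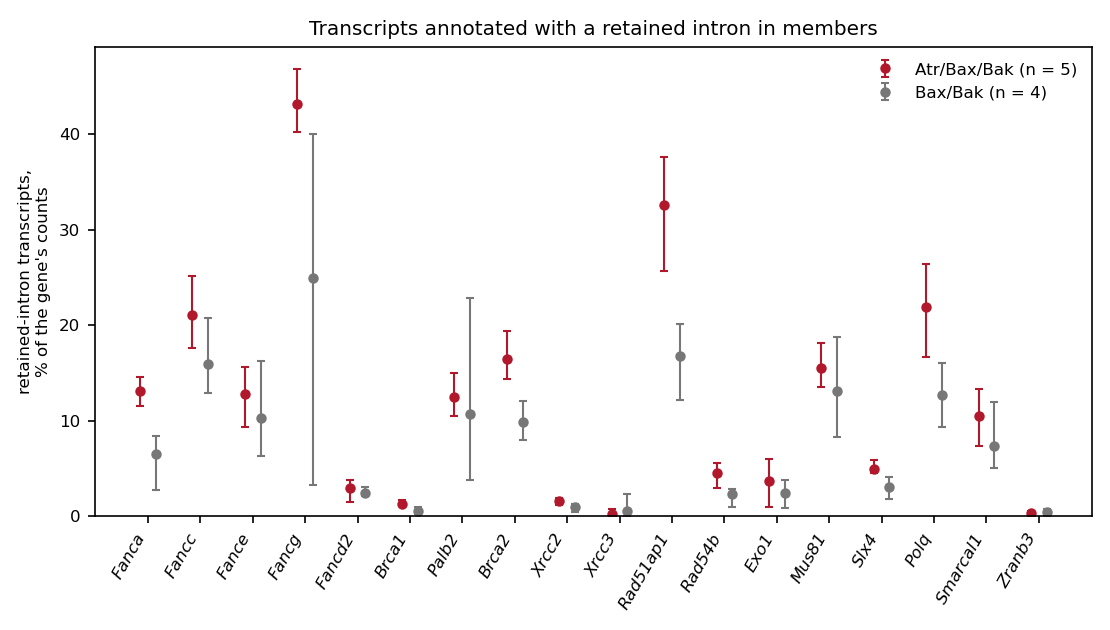
Share of a gene's counts in transcripts annotated with a retained intron (y axis, percent) for the 18 genes with counts in one, in Atr/Bax/Bak (red, left of each pair) and Bax/Bak cerebella (grey). Points are means and bars run between the lowest and the highest library. The bars are apart for 8 genes, among them Rad51ap1, and the Bax/Bak bar of Fancg is wide, with 1 control at 3.26%.

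Other genes of the same pathways, which are not among the 36, were given by a list of 48 genes, of which 25 fell and 4 rose without Bax and Bak, with a median log2 fold change of -0.23. The 6 genes of smallest p all fell on the log2 scale: Usp1, which removes ubiquitin from FANCD2, by 0.94, Fignl1, an ATPase gene of homologous recombination, by 0.88, Gen1, a Holliday junction nuclease, by 0.85, the ubiquitin ligase gene Rfwd3 by 0.79, the ubiquitin ligase gene Rad18 by 0.71 and Rpa2, a subunit of the single-strand binding protein, by 0.63. The 4 that rose were Rev1, a translesion polymerase, by 0.38, the core complex subunit gene Faap100 by 0.35, the RecQ helicase gene Recql5 by 0.26 and the Shu complex gene Zswim7 by 0.26. Without p53, 0 of the 48 were called by edgeR and 0 by DESeq2. There, 5 of the 48 and 1142 of all 17348 genes tested had an unadjusted p below 0.05 in edgeR. In the test of the difference, 21 of the 48 were lower and 2 higher. Non-homologous end joining, the pathway that joins ends without a template, had 13 listed genes. Without Bax and Bak, 3 of these fell (Xrcc5 by 0.34, Xrcc6 by 0.19 and Trp53bp1 by 0.13 on the log2 scale), with a median of -0.08. Among all genes tested there, 22.0% were called lower and 22.5% higher, so the count of 3 in 13 is near the background.

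Markers of dividing cells moved with the 36 genes. All 15 genes of a list of proliferation and S phase markers fell without Bax and Bak, with log2 fold changes of -1.27 to -0.45 and a median of -0.88. Their summed level was 1214 to 1496 CPM in Atr/Bax/Bak and 2320 to 2530 CPM in Bax/Bak cerebella. It was 1707 to 2500 CPM in Atr/p53 and 2332 to 2433 CPM in p53 cerebella, where the low end in Atr/p53 was replicate 2. Of the 36 genes, 3 (Exo1, Brca1 and Rad54l) had a log2 fold change under the median of that list and 21 lay above its highest value. Granule progenitor markers fell for 10 of 13 genes and rose for 1 (2318 to 2637 CPM in Atr/Bax/Bak and 3193 to 3766 CPM in Bax/Bak cerebella), and granule neuron markers fell for 6 of 11 and rose for 1 (2394 to 2838 CPM in Atr/Bax/Bak and 3210 to 4039 CPM in Bax/Bak cerebella). Markers of other cells were higher: 8 of 10 for Purkinje cells, 9 of 10 for GABAergic interneurons, 9 of 11 for astrocytes and Bergmann glia (1 lower), 8 of 10 for the oligodendrocyte lineage (1 lower), 10 of 12 for microglia and 4 of 10 for endothelium and pericytes. The summed level of the interneuron list was 748 to 903 CPM in Atr/Bax/Bak and 522 to 550 CPM in Bax/Bak cerebella, and that of the microglia list 201 to 245 CPM in Atr/Bax/Bak and 140 to 182 CPM in Bax/Bak cerebella. None of the meninges or choroid plexus markers was called by edgeR. At an unadjusted p below 0.05 in edgeR were 1 of 8 and 0 of 6, against 9021 of all 17405 genes tested. DESeq2 called 1 meninges marker lower and 0 choroid plexus markers. The libraries differed widely, with a summed choroid plexus level of 33.5 to 2746 CPM in Atr/Bax/Bak and 63.9 to 3755 CPM in Bax/Bak cerebella. For the meninges it was 401 to 508 CPM in Atr/Bax/Bak and 253 to 750 CPM in Bax/Bak cerebella, so a missing call does not show equal content. Of the erythroid markers, 1 of 7 rose. No listed marker was at 0 in every library of a group. In the test of the difference between the backgrounds, 11 of the 15 proliferation and S phase markers were called lower, with a median of -0.81. For the 36 genes these were 15 and -0.40. Without p53, 0 of the 15 and 0 of the 13 granule progenitor markers were called by edgeR. At an unadjusted p below 0.05 in edgeR were 1 of the 15 and 5 of the 13, with median log2 fold changes of -0.13 and -0.26. Of all 17348 genes tested without p53, 1142 were below that p. The part of cell composition in the changes of the 36 genes was not tested.

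Some values depend on how reads were shared between genes. Apart from Rad54b, Mus81 shared 6.07% of its 31-base words with other genes, and exons of 18 of the 36 genes overlapped a gene on the opposite strand. The libraries were stranded, but the sources used here do not say whether strand was used in counting, so reads of those genes and of their antisense neighbours may not be told apart.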

How the data were processed

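Whole P3 cerebella were measured by stranded poly-A RNA-seq, per the labels' protocols. The authors deposited expected counts, that is estimated counts, per Ensembl transcript and lane, in 2 tables, 1 for each background, from kallisto 0.42.4, per the submitters' processing notes. Those notes also name edgeR and the builds mm9 and GRCm38, and strand settings are not given in the sources used here. Of 94080 transcripts, 92284 matched GENCODE M21, and their counts were summed over lanes and to 31438 genes, then rounded. Between 0.779% and 1.04% of the counts of the 16 deep libraries were on unmatched transcripts and were left out. Genes were tested with edgeR 4.0.16 (quasi-likelihood, robust, TMM, filterByExpr, Benjamini-Hochberg adjusted p below 0.05), in 1 fit per background, and the difference of the effects in 1 fit of 16 libraries. The 36 genes had counts high enough to be tested in each fit. Printed CPM use TMM factors of the 16 libraries, and TPM divide counts by transcript length.

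The genes, lists and tests were chosen with earlier results of these data known. The text gives values in every library for the genes of smallest p (8 without Bax and Bak, 4 without p53, 4 for the difference), for genes called in a direction held by 5 or fewer, and for the highest and lowest level per kilobase. Of the 48 further genes, the 6 of smallest p are named. The 4 that rose were named after their values were seen, and the values of 1 gene of that list are not reported here. Alternatives were other scalings and filters, DESeq2 1.42.0, a joint fit, the shallow library included, controls of 1 number series, and each library left out. The test was also run on simulated data, and the outcome of that run is not given here. The labels do not say that libraries are separate mice beyond their sample numbers, so p-values measure the spread between these samples. Total counts per deep library ran from 42987953 to 100659645, so 1 count was worth 0.0100 to 0.0235 CPM.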

Additional observations from a re-analysis of the deposited data

Results flagged for a closer look

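Of 108 groups of 4 or 5 libraries examined across the 36 genes, 3 had a library far from the others, and chance alone marks about 1 group in 20. Palb2 was highest in Atr/Bax/Bak replicate 4, at 6.23 CPM, against 5.08 to 5.37 CPM in the other Atr/Bax/Bak libraries. Mre11a was lowest in Atr/p53 replicate 2, at 28.4 CPM, against 37.0 to 38.4 CPM in the other Atr/p53 libraries. Smarcal1 was highest in Bax/Bak replicate 3, at 56.9 CPM, against 52.8 to 53.17 CPM in the other Bax/Bak libraries.

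The Atr effect differed between the backgrounds, by edgeR's test of the difference itself at an adjusted p below 0.05, for 15 genes. The log2 differences were -1.11 for Rad54b, -0.80 for Rad51ap1, -0.78 for Rad54l, -0.84 for Exo1, -1.04 for Fancb, -0.87 for Rad51c, -0.81 for Brca1, -0.47 for Nbn, -0.71 for Rbbp8, -0.54 for Xrcc2, -0.41 for Brca2, -0.50 for Fancf, -0.46 for Blm, -0.45 for Brip1 and -0.50 for Eme1.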

How the results depend on the processing

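The count of genes that fell without Bax and Bak was 26 to 29 with each library left out, 24 to 29 over all alternatives, and that of the difference was 12 to 18 with each library left out and 20 with DESeq2. Without p53 the count stayed 0 in each alternative run. The count of genes that rose without Bax and Bak was 0 with no filter on low counts, 0 with protein-coding transcripts only, 3 (Fance, Fancg and Xrcc3) with the controls of replicates 1 and 2, 0 with those of replicates 3 and 4, and 0 to 1 with each library left out. Calls of Fancg were lost in 10 alternatives of the same direction (adjusted p 0.0526 to 0.0799) and also with protein-coding transcripts only, where the direction turned (adjusted p = 0.321), of Zranb3 in 7, of Polq in 4, and of Fanca, Fancc and Rad51b in 1 each. Calls in the lower direction were gained without Bax and Bak for Smarcal1 in 3 alternatives (adjusted p 0.0283 to 0.0422 by edgeR or DESeq2). They were also gained for Mus81 in 1 (adjusted p = 0.0154) and for Slx4 in 1, with protein-coding transcripts only (adjusted p = 0.0471 by edgeR). In the test of the difference, calls were lost for Eme1 in 12, Brip1 in 5, Fancf in 4 and Blm in 3 alternatives, and the cause was not tested.

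Directions turned for genes near 0 without Bax and Bak. Rad51d had a log2 fold change of -0.0146 with median-of-ratios scaling, -0.0227 with no filter, -0.0162 with DESeq2, -0.0103 in the joint fit, -0.0265 with protein-coding transcripts and -0.107 with the controls of replicates 3 and 4. Rad50 had 0.0011 with upper-quartile scaling. With the controls of replicates 1 and 2, Mus81 had 0.155 and Slx4 0.0127, and with those of replicates 3 and 4, Fance had -0.0380 and Xrcc3 -0.139. Fancg had -0.122 with protein-coding transcripts. With each library left out, the values were -0.162 to 0.026 for Mus81, -0.0695 to 0.0063 for Rad50, -0.0616 to 0.0607 for Rad51d and -0.0472 to 0.298 for Xrcc3. Without p53 and with the control of replicate 1 only, the 1 control of the Atr/p53 number series, Fancf had 0.0117, Rad51c -0.0586, Rad51ap1 0.0547 and Rbbp8 0.0816, and with each library left out the values were -0.0929 to 0.0232 for Brca2, -0.0152 to 0.192 for Rad51c and -0.144 to 0.0597 for Xrcc2. No paired analysis was possible because the labels give no replicate numbers shared between groups, and the number series is shared by the Atr/p53 libraries and 1 control only.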
